A study of Arabidopsis lyrata and Arabidopsis thaliana with 9 samples.

Results

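In Arabidopsis lyrata, a perennial relative of the model plant Arabidopsis thaliana, 179 genes of the 32644 listed had RNA in inflorescences and no count in leaves. They were chosen by their own measured values: 0 counts in all 3 leaf libraries and at least 5 CPM in all 3 inflorescence libraries. CPM is the raw count scaled to a common library total. The choice therefore fixes the difference between tissues, which is given as a description with no test. Apart from the limit of 5 CPM in each library, the choice left free how the genes vary among the inflorescence libraries. With all 3 inflorescence libraries, more of them differed 2-fold between replicates than of other genes at comparable levels. Most of this spread came with library 1. With libraries 2 and 3 alone, 5 members (2.79%) differed 2-fold, against 0.321% of the other genes. Genes with few leaf counts lay close to the members in spread.

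The libraries were directional (strand-specific) RNA-seq libraries of total RNA from wild-type A. lyrata (strain lyrata), harvested after bolting, that is, once the flowering stem had grown out. Plants were grown in long days at 18 °C. There were 3 leaf and 3 inflorescence libraries, which the series describes as biological replicates. The labels do not say how many plants went into a library, or which flower stages an inflorescence sample held. Inflorescences of A. thaliana Col-0 were also sequenced, but their tables list other identifiers, so no member could be looked up there. The study concerned binding sites and target genes of a floral master regulator, which from knowledge of the study is SEPALLATA3, a MADS-box transcription factor.

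As background, an inflorescence combines the shoot meristem, buds of many ages and open flowers, while a leaf holds mesophyll, epidermis and veins. In A. thaliana, RNAs found in flowers and missing from leaves are known above all from stamens, where the tapetum feeds the developing pollen, and from pollen itself. Many such RNAs are made for only a short window of bud development. Whether the A. lyrata genes described here belong to these tissues is not known from the files. They carry numeric identifiers only, and 0 of all 32644 identifiers occur in the A. lyrata gene table that was at hand, so no gene name, function or sequence is given. The 2 identifiers printed are examples, and the other members are described by their rank.

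Leaf libraries held 11419322 to 13786151 counts and inflorescence libraries 12729487, 7211749 and 12176700 counts in libraries 1, 2 and 3. In the whole table, 10258 genes had no leaf count. Of these, 6976 had no inflorescence count either and 3282 had at least 1, so the 179 members were 5.45% of the leaf-silent genes seen in inflorescences. They were also 1.21% of the 14813 genes that reached 5 CPM in every inflorescence library, the set used for comparison below. Inflorescence library 1 stood apart from the other 2 in 2-fold differences, for the members and for the other genes. The spread results are therefore also given without it.

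The members were mostly of modest abundance, with a long upper tail. Their mean inflorescence level had a median of 20.1 CPM, an interquartile range of 11.8 to 41.5 CPM and a span from 5.84 to 323 CPM. The other 14634 genes at 5 CPM or more had a median of 30.3 CPM. By mean level, 34 members lay below 10 CPM, 54 from 10 to 20, 56 from 20 to 50, and 35 at 50 or more, of which 5 reached 100. CPM is not divided by transcript length, so this order is one of counts. Behind these levels lay 66 to 7209 counts per member in library 1, 38 to 2224 in library 2 and 63 to 4421 in library 3. In sum, the members took 0.576%, 0.604% and 0.625% of all counts in inflorescence libraries 1, 2 and 3. Without the most abundant member those shares were 0.519%, 0.573% and 0.616%.

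**Figure D1:**
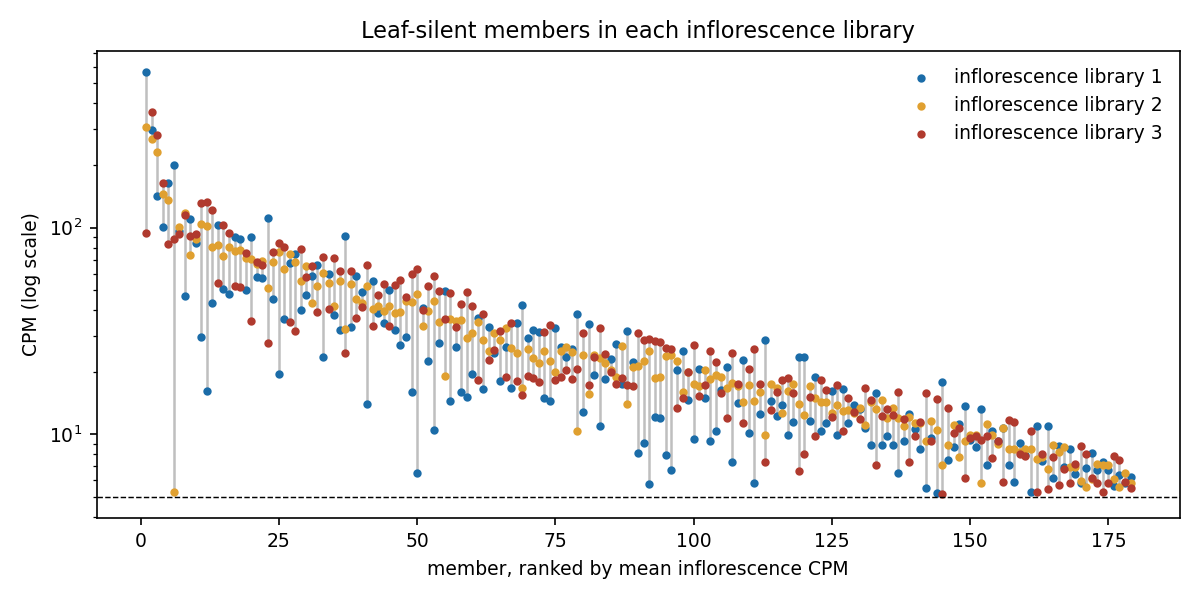
CPM (log scale) of each of the 179 members in inflorescence libraries 1, 2 and 3, ranked by mean level, with a grey line from the lowest to the highest library and a dashed line at 5 CPM. A few members exceed 100 CPM, and the points of library 1 lie at one end of most of the long grey lines.

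The absence from leaves was absence at this depth. No count among 36634249 leaf counts in all allows up to 0.0819 CPM over the leaf group, taking 3 counts as the limit, and 0.218 to 0.263 CPM in a single leaf library. These limits cover counting error only. Against the limit of the whole leaf group, the mean inflorescence levels of members were at least 71.4-fold to at least 3944-fold higher, with a median bound of 246-fold. Single inflorescence libraries can lie below these bounds on the mean, which hold for CPM from raw library totals. With TMM scaling the bounds would be lower, since its factors were 0.940 to 0.946 in leaf and 1.06 in inflorescence libraries. All 179 members passed edgeR's quasi-likelihood test as higher in inflorescences, where 37.3% of the 19638 genes tested did so. The choice used this contrast, so nothing is read from that count.

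The thresholds cut through a continuum. The member nearest to the limit had 5.17 CPM in its lowest inflorescence library, and 23 members had a lowest value under 6 CPM. Just outside, the nearest leaf-silent gene had 4.99 CPM in its lowest library, and 46 leaf-silent genes had a lowest value between 4 and 5 CPM. On the leaf side, 88 genes met the inflorescence limit with exactly 1 leaf count in all, and 59 with 2. The genes with 1 leaf count had a median mean level of 29.5 CPM in inflorescences.

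Leaf silence was checked in libraries that the choice had not used. When leaf library 1 was left out of the rule, 222 genes were chosen, and 179 of them (80.6%) had no count in leaf library 1. Leaving out leaf library 2 gave 253 genes, of which 179 (70.8%) had no count there. Leaving out leaf library 3 gave 214 genes, of which 179 (83.6%) had none. Among all 14813 genes at 5 CPM in inflorescences, 2.30%, 1.96% and 2.45% had no count in those leaf libraries. Of the genes that failed, 35 of 43 had a single count in library 1, 33 of 74 in library 2 and 20 of 35 in library 3. The highest reached 10, 29 and 7 counts, which is 0.725, 2.54 and 0.613 CPM. Silence in a pair of leaf libraries was thus mostly, but not always, followed by silence in the third.

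The most abundant member, gene 923119, stood at 566 CPM in inflorescence library 1, 308 in library 2 and 94.3 in library 3. Its level fell from library to library and differed 6.01-fold between the highest and the lowest. Library 1 alone gave 58.4% of its summed CPM. Its mean of 323 ± 236 CPM (SD, n = 3) was at least 3944-fold above the leaf limit, a bound that was 2459-fold without library 1, where the mean was 201 CPM.

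The next members by level were steadier or ran the other way. The second stood at 297, 270 and 363 CPM in libraries 1, 2 and 3, a range of 1.35-fold. The third stood at 142, 232 and 282 CPM, rising from library 1 to library 3, where the most abundant gene fell. The fourth did likewise at 101, 146 and 164 CPM, and the fifth fell, at 164, 136 and 83.0 CPM. Among the 5 members with a mean of 100 CPM or more, both directions were thus present.

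Gene 492818, the sixth by level, had the widest range of all members. It stood at 200 CPM in inflorescence library 1, 5.27 in library 2 and 87.8 in library 3. These values rest on 38 counts in library 2 and 1069 in library 3, and the highest library was 38.0 times the lowest. Library 2 alone set that range, which was 2.28-fold without it. The seventh and the tenth member by level were steady, at 95.8, 101 and 93.5 CPM and at 83.9, 88.2 and 93.5 CPM. The seventh and gene 492818 had nearly the same mean, 96.9 and 97.7 CPM, but an SD of 3.94 against 97.7 CPM. The mean of gene 492818 was 46.5 CPM without library 1 and 144 CPM without library 2.

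Over all members, replicate spread was wide. The ratio of the highest to the lowest of the 3 inflorescence libraries had a median of 1.69 and an interquartile range of 1.37 to 2.29. In the other 14634 genes at 5 CPM or more the median was 1.15, with an interquartile range of 1.09 to 1.26. A ratio of 2-fold or more was found in 62 members (34.6%), against 2.63% of all 14813 genes, and a ratio of 4-fold or more in 11 members (6.15%), against 0.527%. The median coefficient of variation was 26.4% in members and 7.37% in the other genes. At the steady end, 18 members (10.1%) stayed within 1.2-fold, against 63.8% of the other genes. The members made up 15.9% of all genes with a 2-fold range and 1.21% of the genes compared. No test was made, since the rule used these libraries.

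Inflorescence library 1 carried most of this spread. With libraries 2 and 3 alone, 5 of 179 members (2.79%) differed 2-fold or more, against 0.321% of the other genes. With libraries 1 and 2 alone the count was 31 of 179, against 1.2%. With libraries 1 and 3 alone it was 56 of 179, against 2.02%. In each of these pairs a larger share of members than of other genes differed 2-fold. The size of the count depended most on library 1, and the share of other genes was also lowest without library 1. What set library 1 apart was not tested. In whole inflorescences, fewer cells of a type and less RNA per cell cannot be told apart.

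The variance among the 3 counts was compared with that of Poisson counts, a ratio that averages 1 when only counting error is present. Its median was 19.3 in members and 1.79 in the other genes. Separate libraries usually exceed counting error, and the ratio grows with the number of counts, so it is given as a description and does not rank genes.

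With all 3 libraries, members had wider ranges than the other genes in every band of level. Among members with a mean of 5 to 10 CPM, 4 of 34 (11.8%) had a 2-fold range, against 1.22% of the other genes in that band. From 10 to 20 CPM it was 20 of 54 members (37.0%) against 2.97%. From 20 to 50 CPM it was 24 of 56 (42.9%) against 1.89%, and at 50 CPM or more 14 of 35 (40%) against 2.50%. In the lowest band the 5 CPM limit itself keeps ranges narrow, for members and other genes alike. The median range was 1.40, 1.69, 1.83 and 1.97 in members from the lowest to the highest band, and 1.26, 1.21, 1.15 and 1.1 in the other genes. The median range thus went up with level in members and down with level in the other genes, which the 2-fold shares did not do throughout. With libraries 2 and 3 alone, the median range of members was 1.25, 1.19, 1.27 and 1.33, against 1.14, 1.12, 1.08 and 1.06 in the other genes. The members with a 2-fold range were then 0, 1, 0 and 4 from the lowest to the highest band (0%, 1.85%, 0% and 11.4%). In the other genes the shares were 0.221%, 0.31%, 0.246% and 0.444%. The member shares with all 3 libraries thus rest mostly on library 1. Without library 1, the median range of members was still wider in every band. In the 2-fold shares the largest difference that remained was at 50 CPM or more, on 4 members.

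**Figure D2:**
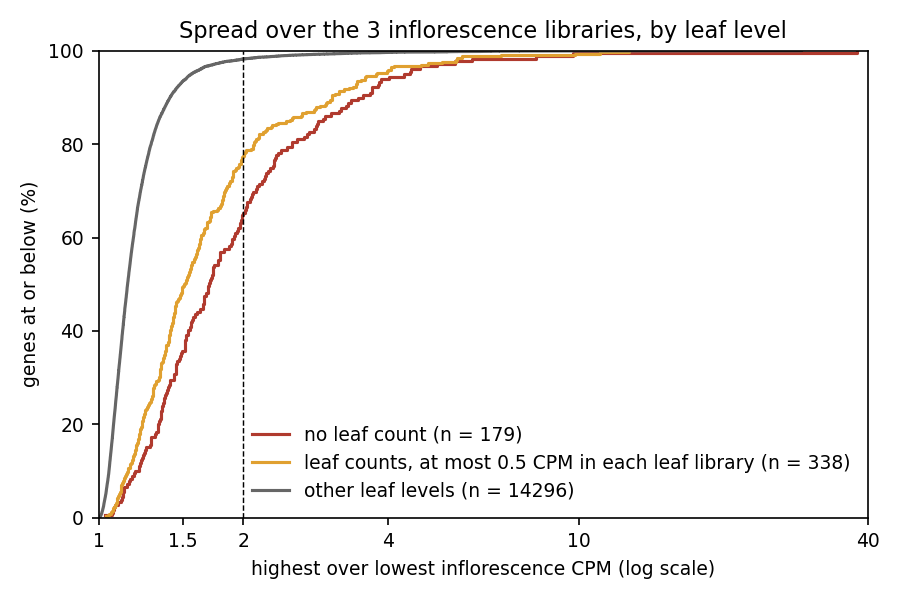
Cumulative share of genes (%) by the ratio of the highest to the lowest inflorescence CPM (log scale), for the 179 members, the 338 genes with leaf counts of at most 0.5 CPM in each leaf library and the 14296 genes at other leaf levels, with a dashed line at 2-fold. The member curve lies furthest to the right over most of its length, with medians of 1.69, 1.51 and 1.15.

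With all 3 libraries, spread was graded with the tissue ratio, and genes with few leaf counts lay close to the members. The 338 genes that had leaf counts but stayed at or under 0.5 CPM in each leaf library had a median range of 1.51, and 76 of them (22.5%) had a 2-fold range. Genes with exactly 1 leaf count had a median range of 1.62, and 26 of 88 (29.5%) had a 2-fold range. The remaining 14296 genes had a median of 1.15, and 1.76% had a 2-fold range. Grouped by mean inflorescence over mean leaf CPM, the share with a 2-fold range was 0.432% at ratios of 0.5 to 2, 2.90% at 2 to 8, 10.2% at 8 to 32, 23.7% at 32 to 128 and 29.2% at 128 or more. The members, whose ratio has no upper limit, followed at 34.6%. Genes with a ratio under 0.5, higher in leaves, stood at 1.04%. With libraries 2 and 3 alone, these shares were 0.124%, 0.439%, 1.41%, 1.34% and 4.09% from a ratio of 0.5 upwards. They were 2.79% in the members and 0.065% at ratios under 0.5, so the steady increase of the 2-fold shares rests on library 1. The median range stayed graded with the tissue ratio without library 1. It was 1.07, 1.09, 1.14, 1.2 and 1.2 from a ratio of 0.5 upwards, and 1.09 at ratios under 0.5. The median ranges were then 1.26 in members, 1.19 in the 338 genes with few leaf counts, 1.21 in the 88 genes with 1 leaf count and 1.08 in the remaining genes.

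**Figure D3:**
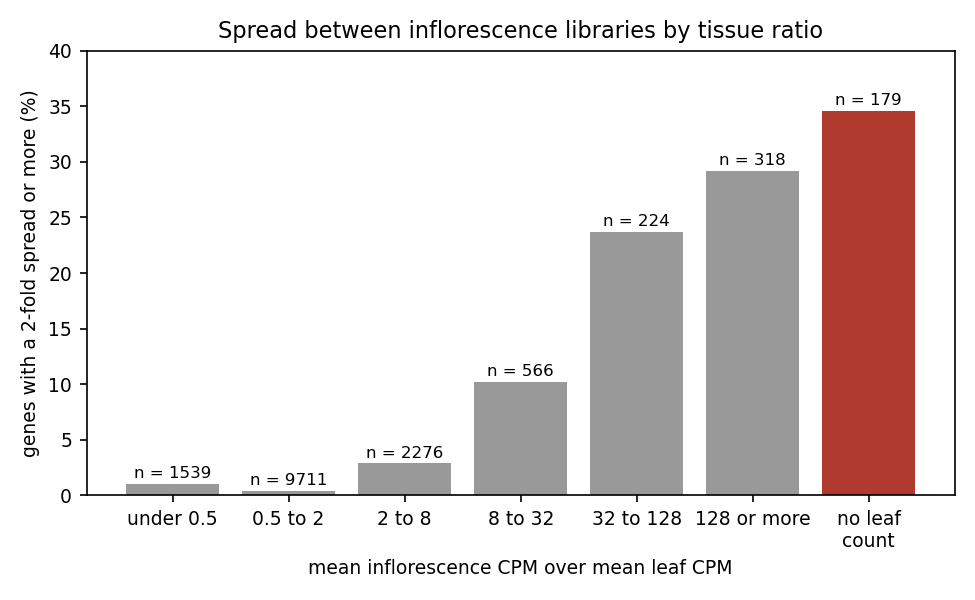
Share of genes (%) whose highest inflorescence library was 2-fold or more above the lowest, by the ratio of mean inflorescence to mean leaf CPM, with the number of genes above each bar and the members in red. The bars go up from 0.432% at a ratio of 0.5 to 2 to 34.6% in the genes with no leaf count.

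Most members followed 1 of 2 opposite orders of the libraries. In 77 members (43.0%) the level went up from library 1 through library 2 to library 3, and in 51 (28.5%) it went down in that order. The other 4 orders were found in 20, 14, 11 and 6 members. Library 2, the shallowest, thus lay between the others in 128 members (71.5%), against 41.4% of the other genes. Library 1 was the highest or the lowest in 159 members (88.8%), against 72.4%. The 338 genes with leaf counts of at most 0.5 CPM in each leaf library lay close to the members, at 65.7% and 86.1%. Libraries have no natural order, so the numbers only name them.

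Among the 62 members with a 2-fold range, these orders held 54 members (87.1%). There were 39 that went up from library 1 to library 3, 15 that went down, and 8 with another order. Library 1 was the highest or the lowest in 61 of the 62 (98.4%), and in 94.2% of the 328 other genes with a 2-fold range. These other genes were also ordered in similar proportions, with 61.9% going up and 21.0% going down, against 62.9% and 24.2% of the members.

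The 39 members with a 2-fold range that went up from library 1 to library 3 were chosen by that order, which fixes the direction of their ratios but not the size of each step. Their median levels were 12.9, 25.2 and 33.9 CPM in libraries 1, 2 and 3. The ratio of library 2 to library 1 ranged from 1.44 to 7.36 among them, with a median of 1.99. The ratio of library 3 to library 2 covered a smaller span, from 1.07 to 1.78, with a median of 1.33 and an interquartile range of 1.26 to 1.42. Together they took 0.0599% of counts in library 1, 0.140% in library 2 and 0.185% in library 3. The 203 other genes of this order and range had median ratios of 2.21 and 1.33.

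The eleventh and the twelfth member by level belonged to this group. The eleventh stood at 29.5, 104 and 131 CPM in libraries 1, 2 and 3. The twelfth stood at 16.3, 102 and 133 CPM. In both, libraries 2 and 3 lay close together, 1.26-fold and 1.30-fold apart, while library 1 was 4.46-fold and 8.17-fold below library 3.

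There were 15 members high in library 1 by the mirrored choice. Library 1 exceeded library 3 by 2.01-fold to 6.01-fold, with a median of 2.74-fold, and the steps from library 1 to 2 and from library 2 to 3 had medians of 1.69-fold and 1.51-fold. Their sum was 0.114%, 0.0642% and 0.0292% of counts in libraries 1, 2 and 3, of which gene 923119 held a large part. Without that gene it was 0.0579%, 0.0334% and 0.0198%.

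**Figure D4:**
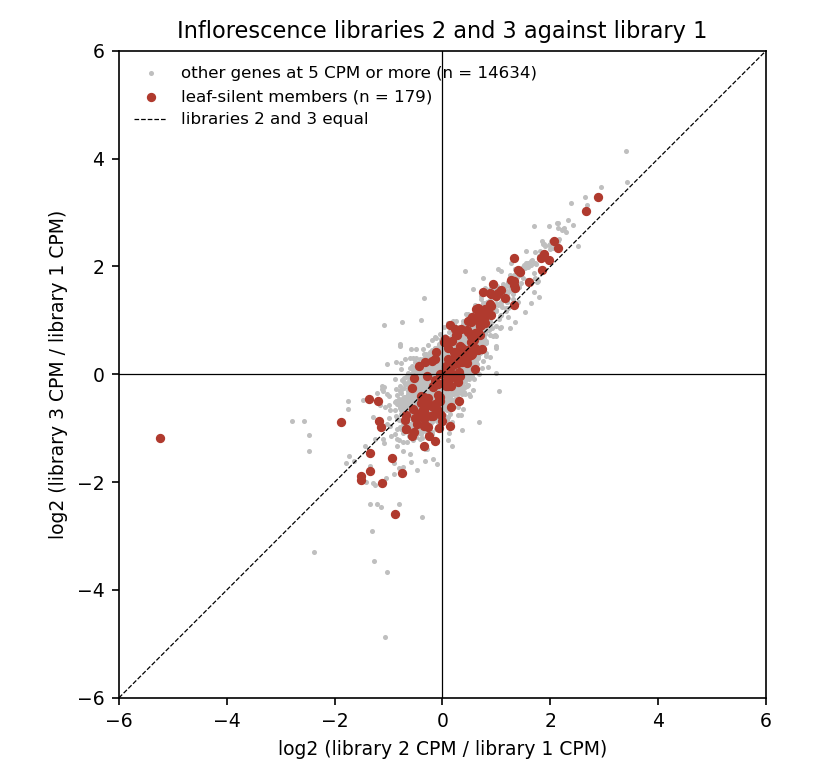
Log2 ratio of library 3 to library 1 against log2 ratio of library 2 to library 1 in inflorescences, for the 179 members (red) and 14634 other genes at 5 CPM or more (grey), with a dashed line where libraries 2 and 3 are equal. The members stretch along that line to both sides of the origin, and gene 492818 lies apart at the far left.

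Pair by pair, the 2-fold differences leaned towards lower levels in library 1, in members and in all genes compared. Library 3 was 2-fold or more above library 1 in 40 members (22.3%), against 1.73% of all 14813 genes, and library 1 was above library 3 in 16 (8.94%), against 0.648%. Library 2 was 2-fold or more above library 1 in 20 members (11.2%), against 1.05%, and library 1 above library 2 in 11 (6.15%), against 0.344%. Libraries 2 and 3 differed least: library 2 was higher in 4 members (2.23%), against 0.216%, and library 3 in 1 (0.559%), against 0.135%. Each of these sets 1 library against 1, so none has a test. The median log2 ratio of library 1 to library 2 was -0.21 in members and 0.02 in all genes compared, and that of library 1 to library 3 was -0.23 and 0.01. Between libraries 2 and 3 it was -0.03 and -0.01.

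Depth and scaling differed between the libraries as follows, and their part in the spread was not tested beyond these values. Libraries 1, 2 and 3 held 12729487, 7211749 and 12176700 counts. The scaling factors of the 3 inflorescence libraries were 1.06, 1.06 and 1.06 by the TMM method, and the count of 62 members with a 2-fold range was the same on that scale. With the 3 libraries thinned to equal depth it was 66.

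Values in inflorescence libraries that the choice had not used gave a like picture. With the rule applied to leaves and inflorescence libraries 2 and 3, 222 genes were chosen, and 179 of them (80.6%) reached 5 CPM in library 1. The lowest of them had 0.393 CPM there, on 5 counts. Leaving out library 2 gave 193 genes, of which 179 (92.7%) reached 5 CPM in it, and leaving out library 3 gave 198, of which 179 (90.4%) did. Of all genes chosen on the other 2 inflorescence libraries alone, whatever their leaf level, 98.0%, 98.7% and 98.9% reached 5 CPM in library 1, 2 and 3.

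In library 1 left out, 61 of the 222 genes (27.5%) lay 2-fold or more below the mean of libraries 2 and 3, against 2.33% of all genes chosen in that way, and 12 (5.41%) lay 2-fold or more above, against 0.338%. In library 3 left out, 24 of 198 genes (12.1%) lay 2-fold or more below, against 0.541%, and 9 (4.55%) above, against 0.548%. In library 2 left out, 11 of 193 genes (5.70%) lay 2-fold or more below, against 0.3%, and 0 above, against 0.0133%. A choice made on a pair of libraries favours genes that are high in that pair, for leaf-silent and other genes alike. The median log2 difference of the left-out library from the mean of the others was -0.42 for library 1, 0.06 for library 2 and 0.04 for library 3, against 0.0092, -0.014 and 0.0010 in all genes chosen in that way.

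For comparison, the mirrored class in leaves held 13 genes, with 5 CPM or more in every leaf library and no inflorescence count. Their median range over the 3 leaf libraries was 1.59, and 5 of them had a 2-fold range, against a median of 1.19 and 2.71% in the 13670 genes at 5 CPM or more in leaves. Both tissue-restricted classes thus had a wider median replicate range than all genes at 5 CPM or more in the same tissue. The leaf comparison was not made by level or with a leaf library left out. With 13 genes, the leaf class gives a coarse share only.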

How the data were processed

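The deposited tables held raw counts per gene, 1 table per library, which the authors made from reads of directional libraries of total RNA, per the labels' protocols. The submitters' processing notes name TAIR10. What aligner and counting tool were used, with or without strand, and which A. lyrata genome served is information not given in the sources used here, so genes that share reads with similar copies or overlap others cannot be told apart. Groups and replicate numbers came from the labels. The series calls the libraries biological replicates without saying that they came from separate plants. SDs therefore measure the spread between these libraries, and p-values set the tissue difference against such spread. That spread may be partly technical.

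CPM was computed from raw library totals. Members had 0 leaf counts and at least 5 CPM in each inflorescence library. The members, thresholds and comparisons were chosen with earlier results of these data known. The identifiers printed are the member with the highest mean CPM and the one with the widest range. For the tissue background, edgeR 4.0.16 (R 4.3.3) was run with filterByExpr, TMM scaling and a quasi-likelihood test with tissue as the only term, with Benjamini-Hochberg adjustment over 19638 genes and a threshold of 0.05. DESeq2 1.42.0 and limma 3.58.1 were alternatives. Python 3.11.15 was used for the rest. The edgeR test and the spread measures were tested on simulated data. The 3 A. thaliana tables were not used.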

Additional observations from a re-analysis of the deposited data

How the results depend on the processing

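The number of leaf-silent members, 179, was 502 with a minimum of 1 CPM, 339 with 2 CPM and 114 with 10 CPM. It was 372 with at most 3 leaf counts in all and 297 with at most 0.1 CPM in each leaf library. With 1 library left out it ranged from 193 to 253. Thinning all 6 libraries to 7211749 counts gave 221 to 232 genes in 5 draws, so silence depends on depth. The share of members with a range above the 95th percentile of the other genes, 55.9%, was 33.0% to 56.4% with 1 inflorescence library left out, the lowest without library 1. The 62 members with a 2-fold range were 115 at 1.5-fold and 11 at 4-fold, and 5 to 56 with 1 library left out, an alternative chosen after seeing the data, as were the values by level, leaf class and tissue ratio from libraries 2 and 3 alone. Library 2 lay between the others in 71.5% of members, against 41.4% of the other genes. Among genes with a 1.5-fold range it did so in 86.1% of members, against 69.2% of the other genes. Among genes of that range with leaf counts of at most 0.5 CPM in each leaf library it did so in 80.6%. The shifts with other minima, leaf limits or folds follow from stricter or looser limits. The cause of the shifts with inflorescence library 1 or 3 left out was not tested.

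The number of genes called between tissues, 14010, was 13069 to 15224 under all alternatives run. With the replicate block it was 13735. Leaf and inflorescence libraries of the same number had correlations of deviations of 0.0896, 0.141 and -0.125, so the numbers give no sign of pairing. All 179 members were called higher under each alternative except limma-voom, which called 176. Over all genes, 7319 (37.3% of 19638 tested) were called higher in the main run and 6904 to 8320 under the alternatives. The choice of members used this contrast, so nothing is read from the member counts.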
